A study of Mus musculus with 6 samples.

Results

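The interleukin-1 and interleukin-36 family was followed through 9 of its genes (Il1a, Il1b, Il1rn, Il1r2, Il18, Il33, Il1f6, Il1f8 and Il1f9) in forestomach epithelium of control mice and of mice with Sox2 added to that epithelium. Members were taken by gene name in the scanner files, which gave 13 of 41174 probes and 9 of 27975 genes. Il1f6, Il1f8 and Il1f9 are the array's older names for the genes now called Il36a, Il36b and Il36g. The control mice (K5-CreER) carried a tamoxifen-activated Cre recombinase driven by the keratin 5 promoter, which is active in the basal cells of stratified epithelia. The mutant mice (K5-CreER;Rosa26Sox2/Sox2) carried, besides the same recombinase, a Sox2 allele on both copies of the Rosa26 locus. Both groups were of mixed 129/Sv and C57/BL6 background, received 2 doses of tamoxifen at 7 weeks of age, and are labelled as 12 weeks old, so Cre and tamoxifen are shared by controls and mutants. Each group had 3 arrays, labelled as biological replicates. On each array the sample RNA was labelled with Cy5 (red) and a common reference, Universal Mouse Reference RNA from 11 mouse cell lines, with Cy3 (green). Values are log2 ratios of sample over reference unless another scale is named.

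IL-1α and IL-1β are inflammatory cytokines that act through the receptor IL-1R1 and its partner IL-1RAP, and signal through MyD88, IRAK kinases and NF-kB. Il1rn encodes the receptor antagonist that blocks both, and Il1r2 a decoy receptor that binds the cytokine without signalling. IL-36α, IL-36β and IL-36γ use a separate receptor, encoded by Il1rl2, and are made mainly by stratified squamous epithelia such as epidermis, oesophagus and forestomach. IL-18 and IL-33 are related cytokines held ready in barrier epithelia: IL-18 needs cleavage by caspase-1, and IL-33 is a nuclear protein released from damaged cells.

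Arrays of one group were not equally far apart. The spread between controls 1 and 2 (scaled median absolute deviation of the difference in log2 ratio, over genes) was 0.160 and that between mutants 2 and 3 was 0.104, whereas it ran from 0.326 to 0.731 for the other pairs, which include every pair of a control with a mutant. Control 3 was 0.540 and 0.534 from controls 1 and 2, farther than these 2 controls were from any mutant (0.326 to 0.490). The labels do not say whether the members of a close pair came from one RNA preparation, so p-values that count them as separate samples may be too small. Controls 1 and 2 lay on slide 1, control 3 on slide 2 with another scan day, and the mutants on slide 3, so that slide and genotype cannot be told apart. Between 62.6% (control 3) and 76.2% (mutant 1) of probes gave a Cy5 signal that the scanner software called well above background. Gt(ROSA)26Sor, transcribed from the Rosa26 locus itself, was 12.9-fold lower in mutants (limma adjusted p = 0.00116). The array's Sox2 probe had a difference of -0.43 (limma adjusted p = 0.143); by the array's annotation it starts at base 1846 of the transcript. Whether the inserted copy holds that part is not given in the labels, so the probe is no check of them. Of 12 squamous keratinocyte markers, 11 were detected on every array and Krt6a on all but control 3, with a mean log2 ratio over 12 genes of 3.57 to 3.84 in controls and 3.11 to 3.49 in mutants. The lower mean in mutants was not seen in the sample channel alone (Cy5). There 7 of the 12 had a positive difference (median 0.12), against 3 of 12 in the ratio (median -0.49).

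All 13 probes of the family gave a sample signal well above background on all 6 arrays, and 0 were saturated. The reference signal of 1 probe of Il1a reached that standard on 4 arrays and that of the other on 5. The array carried a pair of probes for Il1a, Il1rn, Il1r2 and Il1f9 and a single one for the other members; for a gene with several, the probe with the brightest sample signal was tested. The longest run of bases shared by probes of different members was 9 of 60. The probes that follow are shown because most of them cross an intron on the genome and so match spliced transcript; each is given with its position in mm9, the build named in the file headers.
Il1a, chr2:129128725-129130459, minus strand: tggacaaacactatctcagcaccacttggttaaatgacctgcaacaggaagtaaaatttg
Il1rn, chr2:24203035-24204055, plus strand: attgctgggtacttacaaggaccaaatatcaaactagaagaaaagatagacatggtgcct
Il1r2, chr1:40168971-40171918, plus strand: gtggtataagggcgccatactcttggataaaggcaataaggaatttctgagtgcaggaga
Il18, chr9:50387470-50389598, plus strand: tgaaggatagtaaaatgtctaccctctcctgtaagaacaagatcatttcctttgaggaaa
Il1f6, chr2:24072192-24079960, plus strand: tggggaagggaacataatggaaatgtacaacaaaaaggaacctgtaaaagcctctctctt
Il1f9, chr2:24044170-24044229, plus strand: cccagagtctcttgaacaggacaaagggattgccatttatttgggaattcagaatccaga
The probe of Il1a spans 1735 bases of genome, that of Il1rn 1021, that of Il1r2 2948, that of Il18 2129 and that of Il1f6 7769, against a probe length of 60. The Il1f9 probe lies within a single stretch. For Il1a, Il1rn, Il1r2 and Il1f9 the probe shown is not the one tested, and the tested probe lies within a single stretch. For Il18 and Il1f6 the probe shown is the tested one. The Il1b probe, at chr2:129190347-129190406 on the minus strand, starts at base 1236 of its transcript by the array's annotation.

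Of the 9 members, 1 passed the test between mutants and controls. Il1b rose 8.38-fold, while the IL-36 cytokines, Il18, Il33, Il1r2, Il1rn and Il1a did not pass. The background was 2.83% of 20558 genes called in either direction (1.4% higher and 1.43% lower), by limma with Benjamini-Hochberg adjustment over all genes. In 6 of 9 members the values of the groups did not overlap, 1 with mutants higher and 5 with mutants lower, against 37.9% of all genes (19.7% higher and 18.2% lower). The members' median difference was -0.47, against 0.0056 over all genes. For scale, the 1784 genes whose mean log2 ratio was at least 2, a limit that 8 of the 9 members met and that was chosen after their values were seen, had a median difference of -0.37.

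**Figure D1:**
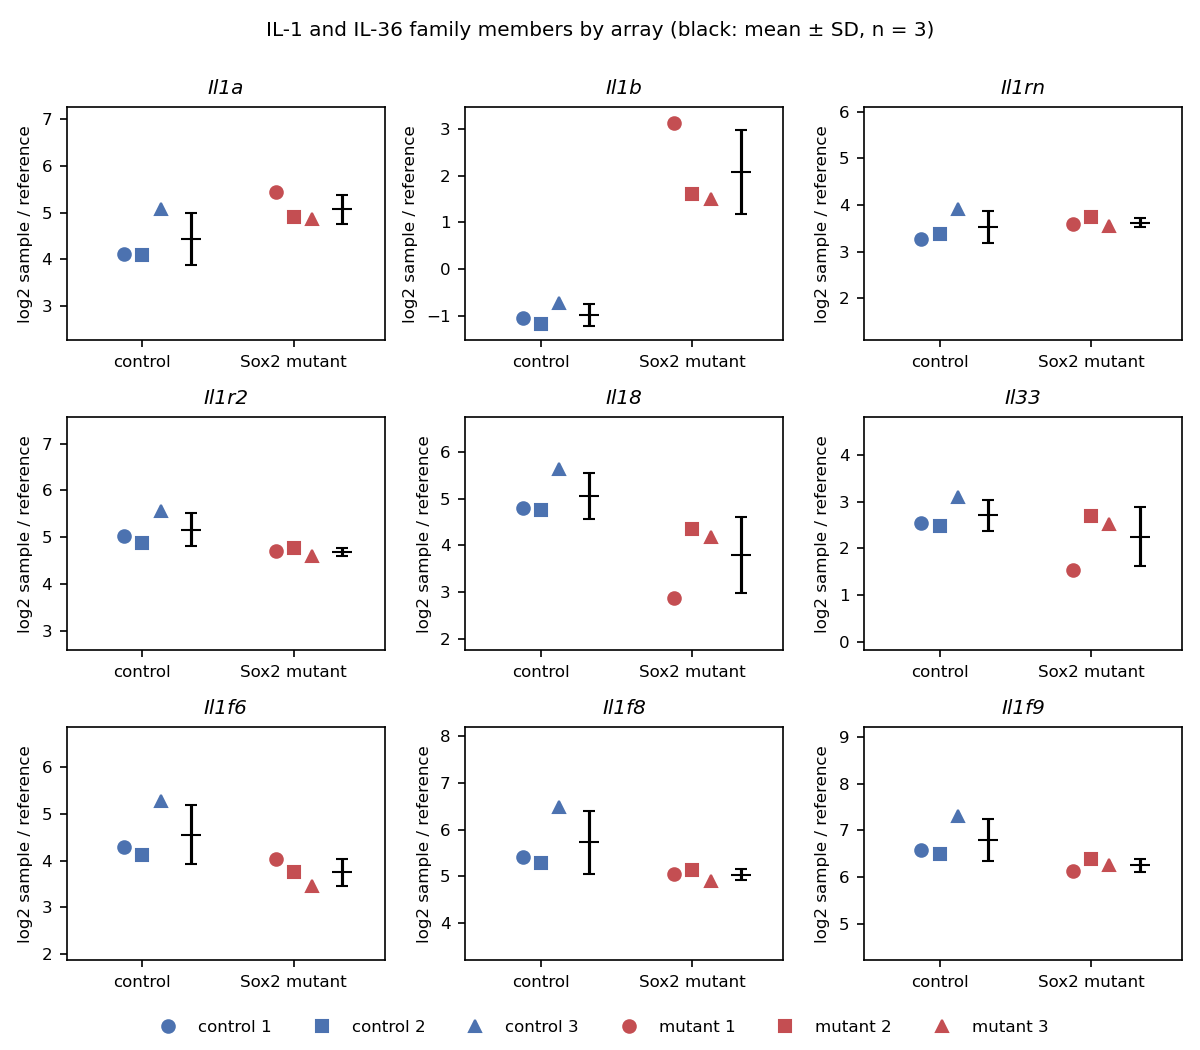
Log2 ratio of sample over reference (vertical axes, all of the same length but centred on each gene) for each member on the 3 control arrays (blue) and the 3 mutant arrays (red), with mean and SD in black. Il1b alone lies wholly higher in mutants, Il18, Il1f6, Il1f8, Il1f9 and Il1r2 lie wholly lower, and control 3 is the highest control in every panel.

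Il1b, which encodes the inducible IL-1 cytokine, had log2 ratios of -1.06, -1.18 and -0.73 on controls 1 to 3 and of 3.12, 1.61 and 1.51 on mutants 1 to 3. All mutants were above all controls, and mutant 1 stood 1.57 above the mean of the other mutants. The means were -0.99 ± 0.24 (SD, n = 3) and 2.08 ± 0.91 (SD, n = 3). The difference was 3.07 with a standard error of 0.44 and a 95% confidence interval of 2.00 to 4.13 (limma adjusted p = 0.0282), which ranked Il1b 253rd of 20558 genes by p. In controls Il1b was below the reference RNA, and it was the only member that was. Its probe is spotted 10 times on each array; the 8 to 10 spots used per array had an SD of 0.042 to 0.078; this is spread within an array and says nothing of the spread between animals.

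The Il1b difference lay in the sample channel. The sample signal after subtraction of local background was 389, 388 and 208 on the controls and 10023, 3165 and 3022 on the mutants, in scanner units that are not normalised between arrays. The reference signal at the same probe was 937, 851 and 558 on the controls and 1087, 987 and 974 on the mutants. With both channels normalised between arrays the sample differed by 3.05 and the reference by -0.01 on the log2 scale. In the sample channel alone the difference was 3.01 with a standard error of 0.55 (limma adjusted p = 0.0648); this missed the threshold.

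The direction of the Il1b difference was the same in all 20 alternative analyses, from 2.54 without mutant 1 to 3.35 without mutant 3, and its call was kept in 11. Both counts hold a repeat. The scan day as a block and the fit without control 3 gave identical values, because control 3 alone had another scan day. The settings that ended it include the sample channel alone and the fits without control 1 (adjusted p = 0.117), without control 2 (0.131), without mutant 2 (0.105) and without mutant 3 (0.0944), with arrays scaled to one spread (0.262), with the slide as a random block (0.522) and when each close pair of arrays was averaged (0.410). Between mutants 2 and 3 and controls 1 and 2 alone the difference was 2.68.

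Myeloid cells are also known to make IL-1β, and their markers were read beside Il1b. Of 10 neutrophil markers tested, 6 (Ngp, Csf3r, Retnlg, Mmp8, Fpr1 and Fpr2) stood well above background on 0 of 3 controls and on all mutants, so they entered the test only through the mutants; they include both that passed, Retnlg and Fpr1. The other 4, Camp, Ltf, Mpo and Cxcr2, had differences of 0.63 to 2.23, and 0 of them passed (lowest limma adjusted p = 0.251). The mean log2 ratio of all 10 was 0.62, 0.69 and 0.03 on controls 1 to 3 and 3.77, 2.01 and 1.85 on mutants 1 to 3. Mutant 1 was highest in this mean, as it was for Il1b. The mean takes in the 6 genes that entered through the mutants, so its rise is partly set by the filter. Among the other 4, mutant 1 stood above the mean of mutants 2 and 3 for Camp (3.92), Mpo (3.01) and Cxcr2 (0.32), but below it for Ltf (-0.62). Mutants 2 and 3 lay among the controls for Ltf and Mpo and above them for Camp and Cxcr2. Of 14 macrophage and monocyte markers, 13 had a positive difference and 2 passed, both higher, against 1.4% of all genes. These were Cd68 and Csf1r (limma adjusted p = 0.0166 and 0.0488). The mean of the macrophage and monocyte list ran from -0.28 to 0.59 in controls and from 0.92 to 1.40 in mutants. When each array was left out in turn, Cd68 and Fpr1 were called in 2 of 6 fits each and Csf1r in 1. Retnlg was not read in these fits. In the sample channel alone Cd68 passed (limma adjusted p = 0.0176), while Csf1r, Fpr1 and Retnlg did not (limma adjusted p = 0.0934, 0.143 and 0.0736). The part of these cells in the Il1b result was not tested. In RNA from a whole sheet, a change in the number of cells of a type and a change in RNA per cell cannot be told apart.

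**Figure D2:**
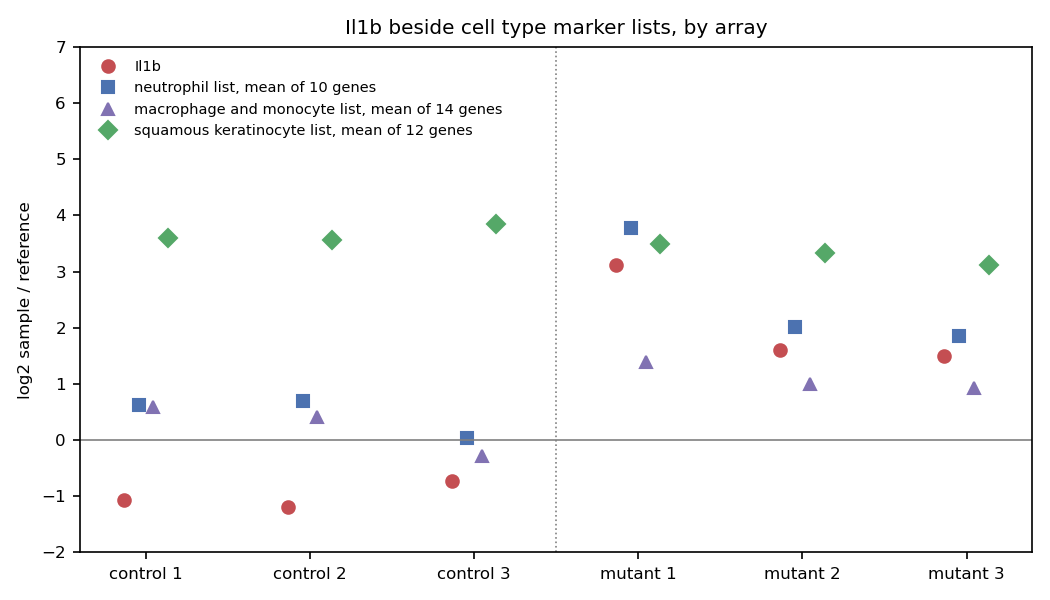
Log2 ratio of Il1b (red circles) on each array beside the mean log2 ratio of the neutrophil (blue squares), macrophage and monocyte (purple triangles) and squamous keratinocyte (green diamonds) marker lists; the dotted line separates controls from mutants. Il1b goes from between -1.18 and -0.73 in controls to between 1.51 and 3.12 in mutants, and both it and the neutrophil list are highest on mutant 1. The neutrophil mean takes in 6 genes that entered the test only through the mutants, so its rise is partly set by the filter.

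Il1a, next to Il1b on chromosome 2 and an IL-1 cytokine that epithelial cells hold in their cytoplasm and nucleus, had log2 ratios of 4.12, 4.09 and 5.09 in controls and 5.44, 4.91 and 4.86 in mutants. Controls 1 and 2 were below every mutant, but control 3 was above mutants 2 and 3, so the groups overlapped. The difference was 0.64 with a standard error of 0.31 and a 95% confidence interval of -0.12 to 1.40 (limma adjusted p = 0.272). The second Il1a probe gave 0.40 with a standard error of 0.31. Without control 3 the difference was 0.96 (adjusted p = 0.0533), and with the scanner software's own processed signals it was -0.38. The reference signal of Il1a was dim, between 38 and 53.4 in scanner units on the controls at both probes, and it was 2.69 and 2.99 times as high on the mutants; after normalisation between arrays it was 1.35 and 1.41 times as high, with overlapping groups.

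The promoter of Il1b is shown because it was the member that passed: the sequence is the 250 bases before its transcript start in the RefSeq promoter table (build GRCm38.p6), with matches to the motifs searched in capitals.
Il1b, chr2:129371140-129371389, minus strand: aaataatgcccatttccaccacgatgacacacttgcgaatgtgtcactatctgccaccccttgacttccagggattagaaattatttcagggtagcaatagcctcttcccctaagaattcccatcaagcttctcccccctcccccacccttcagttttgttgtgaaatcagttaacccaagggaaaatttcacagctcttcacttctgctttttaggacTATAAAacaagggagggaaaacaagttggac
The motifs searched on both strands were the TATA box (TATAAA), a first core bound by SOX factors (AACAAT), a second such core (ACAAAG), the AP-1 motif (TGANTCA), the STAT motif (TTCNNNGAA) and the NF-kB motif; none of them is part of another. The Il1b window held a TATA box at -31 and no other match. The window of Il1a, its neighbour, held a TATA box at -32, an AP-1 match at -12 and the first SOX core, on the opposite strand, at -93. Of 32851 such windows in the RefSeq table, 12.4% held the TATA box, 9.42% the first and 16.5% the second SOX core, 6.75% the AP-1, 7.02% the STAT and 7.25% the NF-kB motif. Over the 11 windows of the 8 members listed there (the promoter table has no entry for Il1f6), 5 held the letters of the TATA box, 3 the first and 1 the second SOX core, 3 the AP-1, 2 the STAT and 0 the NF-kB motif. The TATA letters lay at -175 on the opposite strand in Il18 and at -203 in the first Il33 window. Those of Il1a, Il1b and the second Il33 window lay between -32 and -29. These matches describe the letters of the windows only.

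Il1rn, the receptor antagonist, did not pass in the ratio but rose in the sample channel. Its log2 ratios were 3.27, 3.37 and 3.92 in controls and 3.58, 3.74 and 3.54 in mutants, with overlapping groups. The difference was 0.10 with a standard error of 0.20 and a 95% confidence interval of -0.37 to 0.57 (limma adjusted p = 0.786). In the sample channel alone the log2 signals were 13.88, 14.12 and 13.96 in controls and 15.75, 15.43 and 15.39 in mutants, and every mutant was above every control. That difference was 1.54 with a standard error of 0.16, a 2.90-fold rise (limma adjusted p = 0.0170), and Il1rn was the 1 member of 9 called in the sample channel, against 1.48% of all genes (0.696% higher and 0.788% lower). In that channel the groups did not overlap for 4 of 9 members, against 35.8% of genes. In the ratio this was offset by the reference channel, which was higher on the mutants as well, by 1.34 on the log2 scale after normalisation between arrays. The labels name the same reference RNA for all arrays, and over all genes its median difference was -0.03; 0.298% of genes had a reference difference as high as that of Il1rn. Before normalisation the Il1rn reference signal was 1738, 1646 and 586 on the controls and 4351, 3554 and 3997 on the mutants. The second Il1rn probe differed by 0.33 in the ratio and by 1.02 in the sample channel (limma adjusted p over all probes = 0.311), where control 3 reached the level of the mutants. What moved the reference channel was not tested, and the call of Il1rn depends on whether the ratio or the sample channel is read.

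The same check was made for the other members. The differences of the sample and the reference channel had the same sign at 9 of the 13 probes; the exceptions were Il1b, whose reference difference was -0.01, and the probes of Il1f6 and Il1f9, where the reference difference was positive and the sample difference negative. At Il18 the sample differed by -1.87 and the reference by -0.61, and at Il33 by -0.49 and -0.04.

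**Figure D3:**
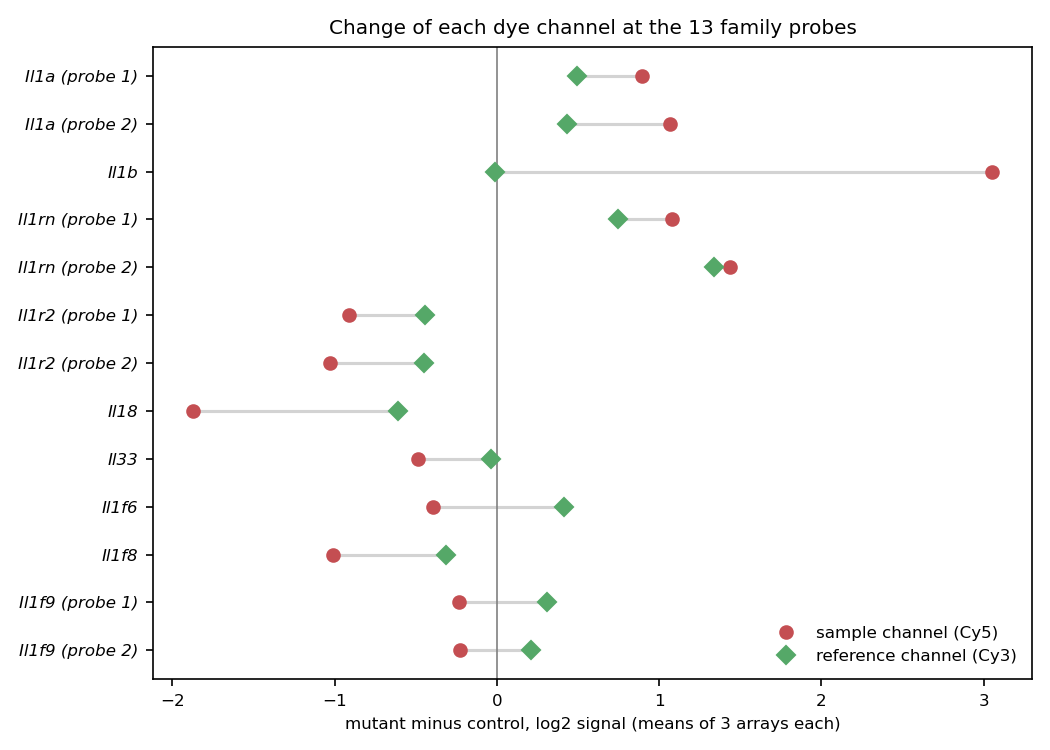
Mutant minus control difference of the log2 signal in the sample channel (red circles) and in the reference channel (green diamonds) for each of the 13 probes, both normalised between arrays; the horizontal distance between them is the difference in log2 ratio. At Il1b the sample lies at 3.05 and the reference at -0.01, whereas at the second-listed Il1rn probe both lie together, at 1.44 and 1.34.

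Il1r2, the decoy receptor, had log2 ratios of 5.03, 4.88 and 5.55 in controls and 4.70, 4.76 and 4.60 in mutants. Every mutant was below every control, by a small margin for mutant 2 against control 2. The difference was -0.47 with a standard error of 0.19 (limma adjusted p = 0.210), and the other probe gave -0.58 with a standard error of 0.20. In the sample channel alone it was -0.87 (adjusted p = 0.244). Without control 3 the difference was -0.27.

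Il18 had the most negative difference of the members. Its log2 ratios were 4.80, 4.75 and 5.64 in controls and 2.86, 4.36 and 4.18 in mutants. All mutants lay below all controls, and mutant 1 stood 1.41 below the mean of the other mutants. The difference was -1.26 with a standard error of 0.45, a ratio 2.40-fold lower in mutants, and it did not pass (unadjusted p = 0.0293, limma adjusted p = 0.167); 23.9% of all genes had an unadjusted p under 0.05. The 10 spots per array had an SD of 0.027 to 0.045. Without mutant 1 the difference was -0.79, and between the close pairs of arrays, mutants 2 and 3 against controls 1 and 2, it was -0.51.

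Il33 had log2 ratios of 2.54, 2.49 and 3.10 in controls and 1.54, 2.70 and 2.53 in mutants. Mutants 2 and 3 lay among the controls and mutant 1 lay 1.08 below their mean. The difference was -0.45 with a standard error of 0.34 (limma adjusted p = 0.448). It was -0.09 without mutant 1 and 0.10 without both control 3 and mutant 1.

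The IL-36 cytokines lie side by side on chromosome 2 with Il1rn, in the order Il1f8, Il1f9, Il1f6, Il1f5, Il1f10 and Il1rn in RefSeq's table of genes, and all 3 had a negative difference without passing the test. Il1f6 (IL-36α) had log2 ratios of 4.29, 4.11 and 5.27 in controls and 4.04, 3.77 and 3.46 in mutants. Its difference was -0.81 with a standard error of 0.33 (unadjusted p = 0.0494, limma adjusted p = 0.208).

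Il1f8 (IL-36β) had log2 ratios of 5.41, 5.28 and 6.49 in controls and 5.06, 5.13 and 4.91 in mutants. Its difference was -0.69 with a standard error of 0.33 (limma adjusted p = 0.253). Il1f9 (IL-36γ) had log2 ratios of 6.57, 6.50 and 7.31 in controls and 6.12, 6.39 and 6.25 in mutants, a difference of -0.54 with a standard error of 0.24 (limma adjusted p = 0.229), and its second probe gave -0.44 with a standard error of 0.17. For each of the 3 genes every mutant was below every control in the ratio. In the sample channel alone the groups overlapped for all 3, with differences of -0.31, -0.94 and -0.13 for Il1f6, Il1f8 and Il1f9.

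Control 3 lay above controls 1 and 2 for 9 of 9 members, by 0.40 (Il1b) to 1.15 (Il1f8), against 38.5% of all genes and 58.1% of the genes with a mean log2 ratio of at least 2. It also differed in markers of other tissues. The mean log2 ratio of the glandular stomach list was 3.66, 3.48 and 0.61 on controls 1 to 3 and 2.10, 3.46 and 3.19 on mutants 1 to 3. That of the smooth muscle list was 1.88, 1.57 and -0.03 on the controls and 0.07, 1.53 and 1.42 on the mutants, so mutant 1 was low in both lists as well. The median difference of control 3 from the other controls was -1.87 over the fibroblast list, -1.65 over the endothelium list and -1.52 over the mast cell list. The part of these tissues in the family's values was not tested. Without control 3 the differences of Il1f6, Il1f8 and Il1f9 were -0.45, -0.31 and -0.28. Without both control 3 and mutant 1, which left the close pairs, 5 members were called (Il1a, Il1b, Il1rn, Il18 and Il1f6), but so were 7732 of all genes.

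The receptors and inhibitors that these cytokines meet were read from a list of 10 genes, of which 8 were tested (median difference 0.49). Of these 1 passed and was higher and 0 were lower, against 1.4% and 1.43% of all genes. The gene that passed was Il1rl2, which encodes the IL-36 receptor. Its log2 ratios were 3.15, 3.19 and 3.37 in controls and 4.24, 4.37 and 4.36 in mutants, and the groups were far apart for the spread within them. It rose 2.12-fold, by 1.09 with a standard error of 0.12 (limma adjusted p = 0.0142), and in the sample channel by 1.29 (adjusted p = 0.0179). Il1rl1, the IL-33 receptor, differed by 1.06 with a standard error of 0.43, and Il1r1, the signalling IL-1 receptor, by 0.69 with a standard error of 0.31, without passing. Part of both differences came from control 3, which differed from the mean of controls 1 and 2 by -1.54 for Il1rl1 and -0.94 for Il1r1. Il18rap, a subunit of the IL-18 receptor, differed by 0.29. Il1rapl1 and Il1rapl2 were on the array but too dim to test.

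The family's other ligands were both negative and neither passed. Il1f5, now called Il36rn, encodes the antagonist of the IL-36 receptor. It had log2 ratios of 6.29, 6.04 and 7.38 in controls and 5.81, 5.68 and 5.19 in mutants, a difference of -1.01 with a standard error of 0.37 (limma adjusted p = 0.177). Every mutant was below every control. Il1f10, which encodes IL-38, had a difference of -0.73 with a standard error of 0.51, and its groups overlapped.

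Of the genes for processing and release of the cytokines, 14 of 18 were tested (median 0.18). Of these 1 was higher and 0 were lower, against 1.4% and 1.43% of all genes. Casp4, the inflammatory caspase that senses intracellular lipopolysaccharide and cleaves gasdermin D, had log2 ratios of -3.49, -3.49 and -4.03 in controls and -0.01, -0.99 and -1.15 in mutants. It rose 7.74-fold, by 2.95 with a standard error of 0.33 (limma adjusted p = 0.0156), and by 2.94 in the sample channel (adjusted p = 0.0261). Caspase-1 itself (Casp1), which matures IL-1β and IL-18, had a difference of -0.39 with a standard error of 0.16, and Pycard, the inflammasome adaptor, of -0.71 with a standard error of 0.24. Mefv, which encodes the inflammasome sensor pyrin, had a difference of 1.98 with a standard error of 0.71, and mutant 1 stood 2.65 above the mean of the other mutants. None of these 3 passed, with limma adjusted p of 0.200, 0.151 and 0.169 in that order. In the sample channel alone the differences of Casp1, Pycard and Mefv were -0.37, 0.03 and 1.86, so that of Pycard was seen only in the ratio.

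Of 23 signalling genes 0 passed, and their median difference of 0.06 was near that of all genes. Those with the smallest p were Peli2 (0.72), Tab1 (0.45), Rel (0.35) and Irak2 (-0.68), with limma adjusted p of 0.0846 to 0.190. Of 9 feedback genes, which NF-kB induces and which restrain or redirect it, 0 passed and 8 had a positive difference (median 0.62). Bcl3 differed by 1.93 with a standard error of 0.48 and Nfkbiz, which encodes the co-activator IκBζ, by 1.38 with a standard error of 0.30, with limma adjusted p of 0.0912 and 0.0697. Dusp1 and Zc3h12a differed by 0.62 and 0.86.

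Of 23 genes known to be induced in epithelium by IL-1 or IL-36, 17 were tested, and 15 of these had a difference above 0 (median 1.41). The mean log2 ratio of the 17 was -1.35, -1.40 and -1.64 on controls 1 to 3. On mutants 1 to 3 it was 1.17, -0.18 and -0.16, so the size of the rise leaned on mutant 1. This mean takes in 2 genes, named below, that entered only through the mutants. Of the 17, 2 were called higher and 0 lower, against 1.4% and 1.43% of all genes. Cxcl2 and Il23a, not well above background on any of the controls, entered the test only through the mutants; of the other 15 genes, 2 were higher and 13 had a difference above 0 (median 1.41). The inflammatory calcium-binding protein gene S100a8 had log2 ratios of -1.14, -1.43 and -2.88 in controls and 6.27, 6.16 and 5.67 in mutants, a difference of 7.85 with a standard error of 0.46 (limma adjusted p = 0.00340). It is also a major product of neutrophils. Ccl20, a chemokine for cells that carry CCR6, had log2 ratios of -0.66, -0.66 and -0.29 in controls and 3.88, 2.73 and 2.61 in mutants, and was well above background on 2 of 3 controls. Lcn2 and Steap4 differed by 2.49 and 2.43 and missed the threshold (limma adjusted p = 0.0558 and 0.0570). For these genes mutant 1 stood 1.76 and 1.75 above the mean of the other mutants. In the sample channel 4 genes of this list were higher, namely S100a8, Ccl20, S100a9 and Defb14, of which S100a9 and Defb14 are named here after their values were seen. S100a9 differed by 0.04 in the ratio and by 2.60 in the sample channel, and Defb14 by -0.26 and 2.33, so for both, as for Il1rn, the channels gave different sizes or directions. The genes for the cytokines Il6, Csf2, Csf3 and Il17c and for Nos2 were too dim to test.

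Over these 6 lists 73 of 85 genes were tested, 4 were higher and 0 lower in the ratio, and 6 were higher in the sample channel. Over all genes tested 1.4% were higher and 1.43% lower in the ratio, and 0.696% were higher in the sample channel. When each array was left out in turn, S100a8 was called in 6 of 6 fits, Ccl20 in 3 and Il1rl2 and Casp4 in 2 each. The calls of Il1rl2 and Casp4 were lost without control 1, control 2, mutant 2 or mutant 3, and that of Ccl20 without control 1, control 2 or mutant 2. All 3 were also lost with arrays scaled to one spread, with the slide as a random block and with the close pairs averaged, and Il1rl2 with the scanner software's processed signals; S100a8 was lost with the scaling and with the pairs averaged. The lists hold genes that many inflammatory stimuli induce. Most of the myeloid markers given above also had a positive difference, but they did not share 1 pattern over the arrays. Cd68, for example, was lowest of the mutants on mutant 1 (-0.24, against 0.26 and 0.18 on mutants 2 and 3). The part of myeloid cells in the differences of these lists was not tested.

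**Figure D4:**
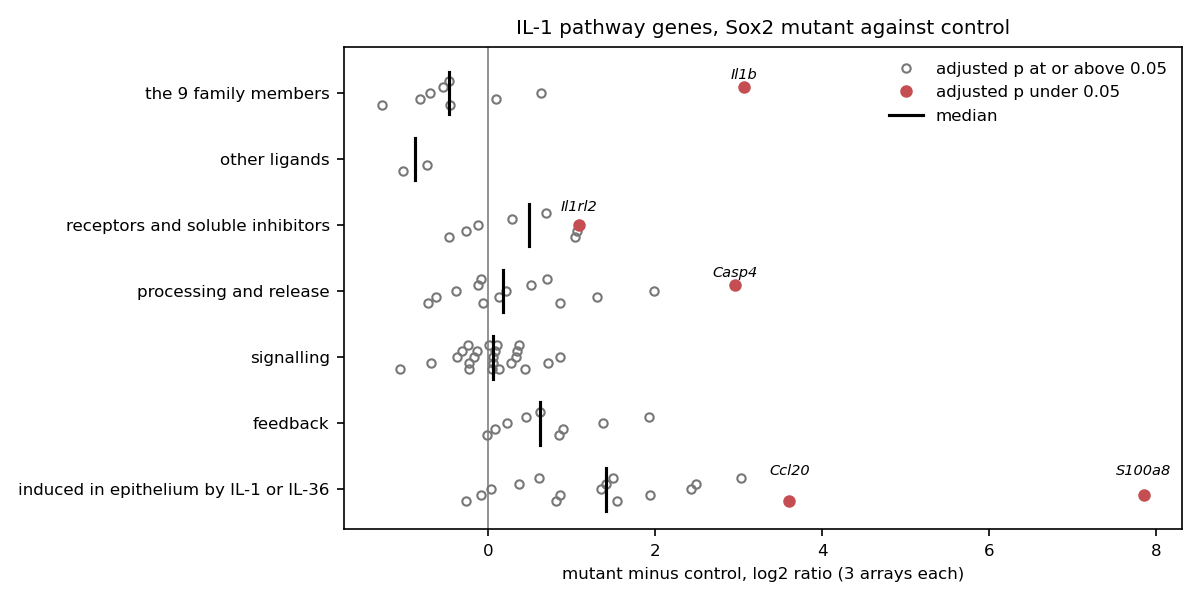
Mutant minus control difference in log2 ratio for the 9 family members and the 73 tested genes of the 6 pathway lists; filled red points passed the test, open points did not, and black bars are medians. Il1b, Il1rl2, Casp4, Ccl20 and S100a8 passed, all on the higher side, and the medians run from -0.87 (other ligands) to 1.41 (induced genes).

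Among 20480 other genes with values on all arrays, the profiles nearest to each member were ranked by the root mean square (RMS) distance of log2 ratios centred on each gene's mean over the 6 arrays. Likeness of profile was the rule of choice, so differences and extreme arrays shared with the member follow from it. Nearest to Il1b were Serpina3m (RMS distance 0.20), a member of the serine protease inhibitor family, Ccl20 (0.30) and Nppb (0.35), which encodes a natriuretic peptide. All 3 had differences between 3.34 and 3.66 and were highest on mutant 1. Nearest to Il18 were Aox4, Creg1 and Klk1b3 (0.095 to 0.11), with mutant 1 lowest in each, and nearest to Il33 were Sh3tc2, Etos1 and Gp1bb (0.035 to 0.062), again with mutant 1 lowest.

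Nearest to Il1f8 were Gjb2, Col17a1 and Sdr9c7 (0.055 to 0.064); Gjb2 encodes a gap junction protein of keratinocytes and Col17a1 a collagen of the hemidesmosome. The genes nearest to Il1f6 were Ces1f, Gpld1 and Car2 (0.046 to 0.070), and those nearest to Il1f9 were Btg1, Ing4 and Cebpa (0.031 to 0.045). In all 6 of these control 3 was highest and the difference was negative. Nearest to Il1r2 were Eps8l1, Cds1 and Wfdc2 (0.017 to 0.030). Il1a was nearest to Ier3, Slc7a11 and Jaml (0.075 to 0.11), and Il1rn to Tnfrsf14, Sec23b and Ppp1r8 (0.045 to 0.055). For members whose arrays differ little, other genes may lie nearly this close, but their number was not counted. The distances describe only these 6 arrays.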

How the data were processed

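The deposited files hold the scanner software's spot intensity in both channels; per the file headers it was Feature Extraction 10.5.1.1 (control 3: 10.7.3.1), while the submitters' processing notes name 9.1. The authors also deposited a table of log2 ratios of unknown centring; its columns for mutants 1 and 3 matched each other's scanner files best (r = 0.973 and 0.969), which leaves group comparisons as they are. Here limma 3.58.1 (R 4.3.3) corrected background by normexp (offset 50), normalised within arrays by loess, left out control and outlier spots, and averaged spots of a probe. Probes with a sample signal well above background on 3 or more of 6 arrays were kept, with 1 probe a gene (brightest mean sample signal). Of 41174 probes, 79.4% were named through RefSeq. Groups were compared with lmFit and eBayes (two-sided, Benjamini-Hochberg over 20558 genes, threshold 0.05). An exact permutation test of 3 against 3 arrays cannot go below 0.1. On simulated data with the same genes, 37% of changes of 1 and 76% of changes of 2 (log2) were recovered, with 7 false calls. The simulated arrays were drawn independently, without close pairs or slide effects, so these rates need not hold for the real arrays. Precision is limited by the number of arrays. The replicate numbers did not pair the samples (correlation of deviations 0.005, 0.02 and 0.13). The members, lists and alternatives were chosen with earlier results of these data known. Genes named were all members, all called genes and otherwise up to 4 with the smallest p of each pathway list, and the 3 nearest profiles of each member.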

Additional observations from a re-analysis of the deposited data

How the results depend on the processing

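Il1b kept its direction in all 20 alternatives. Of these, the scan day block and the fit without control 3 are the same fit, because control 3 alone had another scan day. The members called were 0 with arrays scaled to one spread, with the slide as a random block, with the replicate block and with the close pairs averaged, 6 with array weights, 5 without control 3 and mutant 1, and 0 to 1 when single arrays were left out. With the replicate block, Il1b had an adjusted p of 0.0589. The pathway genes called were 0 with scaling, 1 with the slide block, 7 with the scan day as a block, 39 with array weights, 0 with pairs averaged, 37 without control 3 and mutant 1, and 1 to 7 when single arrays were left out. Over all genes the calls were 226 with the software's processed signals, 268 with median centring, 8 with scaling, 305 in the sample channel, 4 with the slide block, 1482 with the scan day block, 137 with the replicate block, 8615 with array weights, 0 with pairs averaged by limma (2191 at an unadjusted p under 0.05), 7732 without control 3 and mutant 1, and 34 to 1482 when single arrays were left out. Directions reversed for Il1a with processed signals (-0.38), for Il1rn with processed signals (-0.075), the deposited table (-0.002), pairs averaged (-0.011) and without control 1 (-0.027; the range over single arrays left out was -0.027 to 0.297), and for Il33 with array weights (0.067) and without control 3 and mutant 1 (0.10). None of these reversed values passed the test, and the cause was not tested. Brightness over background did not limit the family's sample signals; the reference signal of Il1a was well above background on 4 arrays at 1 probe and on 5 at the other.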
